A study of Mus musculus with 13 samples.

Results

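Gli1, Ptch1, Hhip and Sfrp1, transcriptional targets of the Hedgehog pathway, were followed across 13 RNA-seq libraries of mouse medulloblastoma cells, which had been isolated by sorting for GFP. They were chosen by gene symbol, 4 of the 53653 genes in the count table, and all 4 were among the 22265 genes with enough counts to be tested. The study asked, per its title, how loss of KMT2D, a histone H3 lysine 4 methyltransferase acting mainly at enhancers, bears on Hedgehog-driven tumours and their spread. All 3 groups carried SmoM2, an activated form of Smoothened, so none is a tumour without forced Hedgehog signalling.

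KO metastasis held 4 libraries (replicates 3, 4, 6 and 7) from spinal cord metastases with SmoM2 and a Kmt2d knockout, labelled Kmt2dCf/Cf, in animals of 5 to 8 weeks. KO primary held 4 libraries with the same replicate numbers from the cerebellar tumours of animals with the same genotype and age. Control primary held 5 libraries (replicates 3 to 7) from cerebellar tumours with SmoM2 only, in animals of 6 to 16 weeks, so genotype and age range cannot be told apart. Pellets held 0.1 to 3 M cells for the metastases and 1 to 5 M cells for both primary groups. The labels give neither the promoter or recombinase behind SmoM2, GFP and the knockout nor the mouse behind each library. Every p-value therefore measures the spread between these libraries, which may be partly technical.

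Total counts were 27.1 to 40.8 M in KO metastasis, 35.2 to 41.4 M in KO primary and 23.5 to 37.5 M in control primary. Genes of olfactory and vomeronasal receptors, which belong to sensory neurons of the nose, held more than 100 CPM (counts per 1 M counts) in 4 libraries, KO metastasis 6 and 7, KO primary 7 and control primary 3, with 349 to 1752 CPM, and 83.5 CPM or less in the other 9. KO metastasis 3 had 2.06% of its counts on mitochondrial genes, against 0.633% to 0.876% elsewhere. Xist, the long noncoding RNA of the inactive X chromosome, reached 324 to 509.5 CPM in replicates 5, 6 and 7 of control primary, and all other libraries had 1.02 CPM or less. Kmt2d itself ranged over 105 to 131 CPM in KO metastasis, 91.7 to 168 CPM in KO primary and 78.1 to 175 CPM in control primary. Counts over the whole gene do not read the deleted part, so they do not check the genotype. The 8 granule cell precursor markers, the labelled cell type of the primary tumours, were detected in every group and summed to 2566 to 3880 CPM in KO metastasis, 2540.2 to 3165 CPM in KO primary and 1913 to 2479.8 CPM in control primary.

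Hedgehog ligands bind the receptor PTCH1 and lift its block on SMO, which then acts through the primary cilium to switch the GLI factors from repressors to activators of transcription. In the developing cerebellum Sonic hedgehog from Purkinje cells drives granule cell precursors to divide, and these precursors are the cells from which this class of medulloblastoma arises. Gli1 is a widely used readout of the pathway, Ptch1 and Hhip encode inhibitors that feed back on it upstream of SMO, and Sfrp1 encodes a secreted antagonist of Wnt signalling. Because SmoM2 acts downstream of PTCH1 and HHIP, neither inhibitor is thought to restrain it.

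The 4 genes differed widely in abundance, and their order was the same in all 3 groups. On the RPKM scale, which divides CPM by exon length in kilobases, Sfrp1 averaged 362 ± 51.5 in KO metastasis, 414 ± 42.3 in KO primary and 315 ± 51.5 in control primary (SD, n = 4, 4 and 5). Ptch1 averaged 33.8 ± 7.96 RPKM in KO metastasis, 41.8 ± 9.80 RPKM in KO primary and 29.4 ± 11.2 RPKM in control primary. Gli1 followed with 31.6 ± 6.37 RPKM in KO metastasis, 34.6 ± 2.28 RPKM in KO primary and 23.5 ± 8.37 RPKM in control primary, within the spread of Ptch1 in each group. Hhip was the least abundant, with 6.84 ± 2.31 RPKM in KO metastasis, 10.4 ± 4.63 RPKM in KO primary and 4.85 ± 1.93 RPKM in control primary. Among 15779 tested genes with an exon length, the mean over all libraries put Sfrp1 at the 99.7th percentile of RPKM, Ptch1 at the 89.0th, Gli1 at the 86.8th and Hhip at the 59.4th. Counts per library ran from 478 to 76859, so that counting alone gave 95% intervals of 0.708% to 9.07% to either side. The plot of the 4 genes by library shows that spread.

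**Figure D1:**
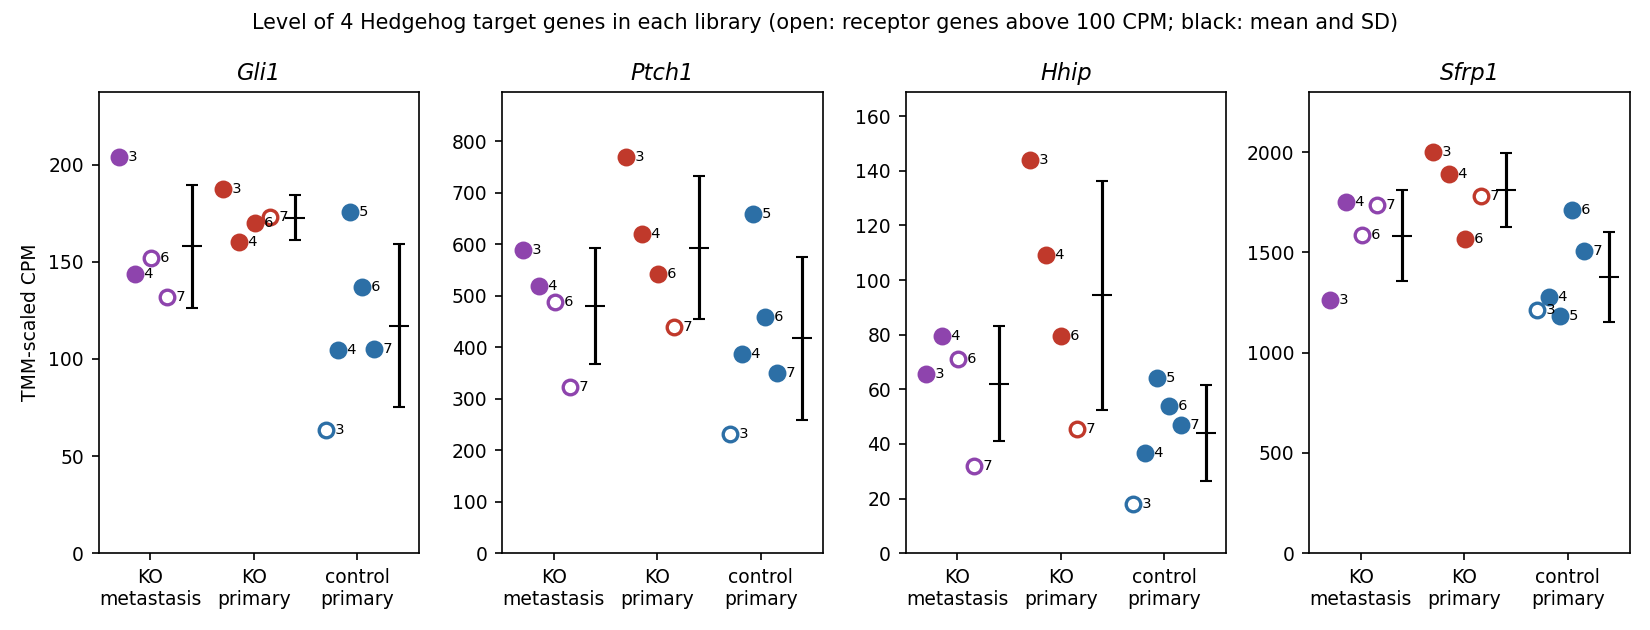
TMM-scaled CPM (vertical axis) of Gli1, Ptch1, Hhip and Sfrp1 in each library of KO metastasis, KO primary and control primary, with replicate numbers beside the points. Open points are the 4 libraries above 100 CPM of receptor genes, and black bars are the mean and SD; no gene separates the groups completely, and control primary 3 is the lowest of 13 libraries for Gli1, Ptch1 and Hhip.

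Gli1 (ENSMUSG00000025407, minus strand, chr10:127329882-127341974 on GRCm38) encodes a zinc finger activator that is both an effector and a target of the pathway. In KO metastasis it was at 204, 144, 152 and 132 CPM in replicates 3, 4, 6 and 7. KO primary gave 188, 160.2, 170.2 and 173 CPM. In control primary it was at 63.6, 105, 176, 137 and 105 CPM in replicates 3 to 7. The KO primary libraries lay close together, with a coefficient of variation of 6.59%, while control primary varied by 35.7% and KO metastasis by 20.1%. Of the 5 controls, 4 were below the lowest KO primary library, and control primary 5 lay inside the KO primary range. Exons of Gli1 overlap those of Arhgap9 by 62 bases and those of Gm47200 by 265 bases on the opposite strand, and with the strand setting of the counts not given, reads there cannot be told apart.

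Ptch1 (ENSMUSG00000021466, minus strand, chr13:63508328-63573598) encodes the Hedgehog receptor. KO metastasis libraries held 589, 519, 489 and 322 CPM in replicates 3, 4, 6 and 7. KO primary libraries held 769.6, 621, 543 and 439.8 CPM. Control primary libraries held 232, 387, 659, 458 and 350.2 CPM in replicates 3 to 7. The ranges overlapped, and 3 of 5 controls were below the lowest KO primary library. Control primary 5 was 2nd of 13 for Ptch1 and 3rd for Gli1.

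Hhip (ENSMUSG00000064325, minus strand, chr8:79965851-80058006) encodes a membrane and secreted protein that binds Hedgehog ligands. Its level was 65.7, 79.5, 71.1 and 31.8 CPM in KO metastasis replicates 3, 4, 6 and 7. The KO primary values were 144, 109, 79.5 and 45.3 CPM. The control primary values were 18.2, 36.9, 64.1, 53.9 and 47.1 CPM in replicates 3 to 7. Hhip varied most, 7.91-fold between the lowest and the highest library, against 3.32-fold for Ptch1, 3.21-fold for Gli1 and 1.69-fold for Sfrp1. In both knockout groups 3 of 4 libraries were above the highest control, and the fourth, replicate 7, lay among the controls. In each group the lowest Hhip and the lowest Ptch1 value came from a library above 100 CPM of receptor genes, KO metastasis 7, KO primary 7 or control primary 3. An RNA gene on the opposite strand, Gm27820, overlaps 175 exonic bases of Hhip.

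Sfrp1 (ENSMUSG00000031548, plus strand, chr8:23411502-23449632) was at 1264, 1749, 1587 and 1735 CPM in KO metastasis replicates 3, 4, 6 and 7. Its KO primary values were 2002, 1890.3, 1568 and 1779 CPM. In control primary it was at 1211, 1276, 1184, 1710.1 and 1508 CPM in replicates 3 to 7. Of the KO primary libraries 3 were above the highest control, and 4 of 5 controls were below the lowest KO primary library. Its order of libraries differed from that of the other genes. KO metastasis 3, the library with the most Gli1, was 11th of 13 for Sfrp1, and control primary 5, high in Gli1 and Ptch1, was the lowest.

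Promoter windows are shown for the inhibitors Hhip and Ptch1, 2 of the 4 genes, which were those matched in the RefSeq promoter table. These are the stretches around the transcription starts annotated by RefSeq on GRCm38.p6, both on the minus strand and written 5′ to 3′, with matches to CCACCC, the core of the GLI binding motif, in capitals.
Hhip chr8:80057959-80058258: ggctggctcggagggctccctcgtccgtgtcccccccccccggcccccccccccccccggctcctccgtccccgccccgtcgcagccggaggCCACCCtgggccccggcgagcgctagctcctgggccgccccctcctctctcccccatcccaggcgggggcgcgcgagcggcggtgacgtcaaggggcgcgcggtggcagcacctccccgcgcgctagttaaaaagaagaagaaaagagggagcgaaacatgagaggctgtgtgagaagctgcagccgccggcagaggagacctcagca
Ptch1 chr13:63565686-63565985: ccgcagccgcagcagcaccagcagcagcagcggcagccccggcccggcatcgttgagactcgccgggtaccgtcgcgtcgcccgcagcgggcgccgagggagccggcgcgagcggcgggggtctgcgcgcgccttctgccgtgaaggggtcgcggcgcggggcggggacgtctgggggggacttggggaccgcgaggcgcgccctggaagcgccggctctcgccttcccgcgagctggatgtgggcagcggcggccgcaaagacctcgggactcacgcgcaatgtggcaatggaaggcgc
The GLI consensus GACCACCCA was searched on both strands. It had no match in either window, also when 1 mismatch was allowed. Among 32851 RefSeq promoter windows of the same length, 0.253% held the consensus exactly and 6.74% with up to 1 mismatch. CCACCC occurred 1 time in the Hhip window, 158 bases before the start on the strand shown, and not in the Ptch1 window, against 31.5% of all windows. It lies inside the longer motif, so the searches are not independent. The Ptch1 window belongs to a start inside the annotated gene, and other starts were not examined. GC content was 73.7% in the Hhip window and 76.3% in the Ptch1 window. Gli1 and Sfrp1 were not examined in this way.

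In KO primary against control primary, all 4 genes had a higher mean in the knockout, and none was called at an adjusted p below 0.05 (edgeR quasi-likelihood test, Benjamini-Hochberg over 22265 genes), where 2.93% of all genes were called, 1.15% higher and 1.78% lower. Hhip averaged 94.4 ± 42.0 CPM in KO primary and 44.0 ± 17.5 CPM in control primary (SD, n = 4 and 5). Its log2 fold change was 1.10 (SE 0.38, 95% interval 0.29 to 1.91), or 2.14-fold, with an edgeR adjusted p of 0.162. Gli1 averaged 173 ± 11.4 CPM in KO primary and 117 ± 41.8 CPM in control primary, a log2 fold change of 0.56 (95% interval 0.07 to 1.05, edgeR adjusted p = 0.270). Ptch1 averaged 593 ± 139 CPM in KO primary and 417 ± 158 CPM in control primary, a log2 fold change of 0.51 (95% interval -0.06 to 1.07, edgeR adjusted p = 0.447). Sfrp1 averaged 1809.8 ± 185 CPM in KO primary and 1378 ± 225 CPM in control primary, a log2 fold change of 0.39 (95% interval 0.09 to 0.69, edgeR adjusted p = 0.182). Without adjustment, 3 of the 4, all but Ptch1, passed 0.05 in the higher direction, as did 6.69% of all genes. The libraries of KO primary and control primary overlapped for each of the 4, while 7.42% of all genes had no overlap. Their median log2 fold change was 0.53, beside -0.05 over all genes tested. No difference between the groups was established for any of the 4 by this test, and the upper ends of the 95% intervals were 3.75-fold for Hhip, 2.11-fold for Ptch1, 2.07-fold for Gli1 and 1.62-fold for Sfrp1.

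The call of Hhip depended on the libraries and the tool. Without the 4 libraries above 100 CPM of receptor genes KO primary 3, 4 and 6 held 144, 109 and 79.5 CPM of Hhip. Control primary 4 to 7 held 36.9, 64.1, 53.9 and 47.1 CPM. Among the libraries left out were KO primary 7 and control primary 3, which had the lowest Hhip of their groups. The log2 fold change of Hhip was then 1.15 (SE 0.22, edgeR adjusted p = 0.0118), in a fit that called 7.06% of 20214 genes. DESeq2, which called 10.2% of its 16165 genes with an adjusted p, gave Hhip 1.09 (DESeq2 adjusted p = 0.0418). Limma voom with quality weights, which called 14.7% of genes, gave 1.01 for Hhip (limma adjusted p = 0.0268) and 0.47 for Gli1 (limma adjusted p = 0.0464). Ptch1 and Sfrp1 were called by neither tool and in neither set of libraries.

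The controls differed among themselves by Xist. Against control primary 3 and 4 alone, the controls without Xist, the log2 fold changes in KO primary were 1.06 for Gli1, 0.97 for Ptch1, 1.81 for Hhip and 0.59 for Sfrp1. None was called there (edgeR adjusted p between 0.213 and 0.466), and control primary 3 is also a library above 100 CPM of receptor genes. Neither the part of sex nor that of the receptor signal in these differences was tested.

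In KO metastasis against control primary the fitted changes were smaller than in KO primary, and none of the 4 was called, against 3.08% of all genes, 1.06% higher and 2.02% lower. The log2 fold change was 0.43 for Gli1 (95% interval -0.06 to 0.92, edgeR adjusted p = 0.447), 158 ± 31.8 CPM in KO metastasis and 117 ± 41.8 CPM in control primary. It was 0.49 for Hhip (95% interval -0.31 to 1.30, edgeR adjusted p = 0.675), with 62.0 ± 21.0 CPM in KO metastasis and 44.0 ± 17.5 CPM in control primary. Ptch1 averaged 479.8 ± 113 CPM in KO metastasis and 417 ± 158 CPM in control primary, a log2 fold change of 0.20 (95% interval -0.37 to 0.77, edgeR adjusted p = 0.890). Sfrp1 averaged 1584 ± 225 CPM in KO metastasis and 1378 ± 225 CPM in control primary, a log2 fold change of 0.20 (95% interval -0.10 to 0.50, edgeR adjusted p = 0.625). The groups overlapped for all 4, and 6.82% of all genes did not overlap. At an unadjusted p below 0.05 edgeR also had none of the 4, beside 14.2% of all genes. DESeq2 called none of them and 9.59% of its genes, and limma voom called none of them and 17.2%. The sign for Ptch1 turned with voom, to -0.08.

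Between the knockout tumours, KO metastasis against KO primary, all 4 genes had the lower mean in the metastases and none was called. In this comparison 1 gene in all, 0.00449%, was called. The log2 fold changes were -0.13 for Gli1 (95% interval -0.65 to 0.39), -0.31 for Ptch1 (-0.91 to 0.29), -0.61 for Hhip (-1.46 to 0.25) and -0.19 for Sfrp1 (-0.51 to 0.12), each with an edgeR adjusted p of 1.00. The groups overlapped for all 4, and 1.72% of all genes did not overlap. None of the 4 passed an unadjusted p of 0.05 in this edgeR fit, beside 3.23% of all genes. Neither DESeq2, with 0.149% of its genes called, nor limma voom, with 0.00898%, called any. Without the 4 libraries above 100 CPM of receptor genes the Gli1 difference was 0.01. The intervals leave room for a fall of Hhip to 0.363 of its level in KO primary and for a rise to 1.19 times that level.

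A test of all 3 groups at once gave edgeR adjusted p-values of 0.307 for Hhip, 0.344 for Sfrp1, 0.438 for Gli1 and 0.691 for Ptch1. It called 3.29% of all genes and none of the 4, with unadjusted edgeR p-values of 0.0347 for Hhip and 0.0433 for Sfrp1. All comparisons with control primary use the same 5 control libraries, so the changes in both knockout groups are not independent of each other. The plot of fitted changes sets the 4 genes side by side.

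**Figure D2:**
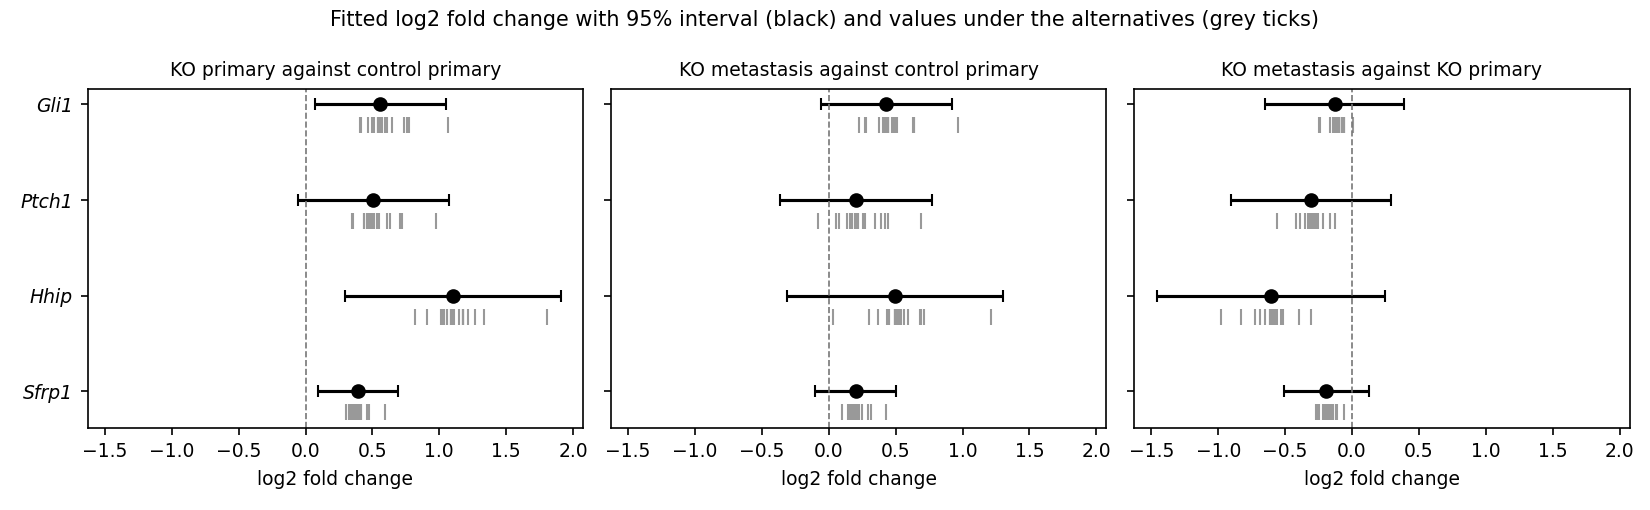
Fitted log2 fold change (horizontal axis) of each gene in 3 comparisons, with 95% intervals in black and the values under all other settings as grey ticks. All values for KO primary against control primary lie above 0, with Hhip highest at 1.10, and all intervals for both comparisons of KO metastasis include 0.

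Across the 13 libraries the levels of Ptch1 followed those of Hhip and Gli1, and the correlation of Gli1 and Hhip depended on the scaling. Pearson correlations of log2 CPM were computed for all 6 pairs of the 4 genes, with permutation p-values adjusted over the 6. Ptch1 and Hhip had r = 0.933 and Spearman's rho = 0.863 (permutation test, adjusted p = 1.2e-04 for r and 0.00162 for rho). Gli1 and Ptch1 had r = 0.880 and rho = 0.841 (permutation test, adjusted p = 3.3e-04 for r and 0.00174 for rho). Gli1 and Hhip had r = 0.786 and rho = 0.632 (permutation test, adjusted p = 0.00324 for r and 0.0474 for rho). Leaving out the 2 libraries farthest from the median gave r = 0.838 for Ptch1 and Hhip, 0.776 for Gli1 and Ptch1 and 0.503 for Gli1 and Hhip, the pair that lost most. The left-out libraries were control primary 3 with KO primary 3 for the first pair and control primary 3 with control primary 4 for the pairs with Gli1. After each group's mean was removed, r was 0.912 for Ptch1 and Hhip, 0.867 for Gli1 and Ptch1 and 0.679 for Gli1 and Hhip (permutation within groups, adjusted p = 0.00108, 0.00864 and 0.0294). The rank correlation within groups was 0.868 for Ptch1 and Hhip (permutation within groups, adjusted p = 0.0087). It was 0.703 for Gli1 and Ptch1 and 0.456 for Gli1 and Hhip (permutation within groups, adjusted p = 0.05655 and 0.277). In the 9 libraries at or below 100 CPM of receptor genes, r was 0.846, 0.905 and 0.706 for these pairs in the same order. With CPM on library totals in place of TMM, Gli1 and Hhip had r = 0.730 and rho = 0.544 over 13 libraries (permutation test, adjusted p = 0.0091 for r and 0.114 for rho) and r = 0.594 within groups (permutation within groups, adjusted p = 0.108). On that scale r was 0.910 for Ptch1 and Hhip and 0.855 for Gli1 and Ptch1 (permutation test, adjusted p = 1.2e-04 and 5.4e-04), and within groups 0.884 and 0.840 (permutation within groups, adjusted p = 0.00204 and 0.0253). The rank correlation of Gli1 and Ptch1 within groups was 0.676 there (permutation within groups, adjusted p = 0.0799).

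Sfrp1 had r = 0.543 with Hhip, 0.377 with Gli1 and 0.325 with Ptch1 (permutation test, adjusted p = 0.0814, 0.249 and 0.279). With group means removed these were 0.22, -0.08 and -0.04, and in the 9 libraries with low receptor signal they were 0.694, 0.090 and 0.270. In those 9 libraries the value for Hhip and Sfrp1 was close to the 0.706 of Gli1 and Hhip, and differences between pairs were not tested. The points share library depth and background, whose part in these correlations was not tested. The scatter of the genes against each other shows both patterns.

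**Figure D3:**
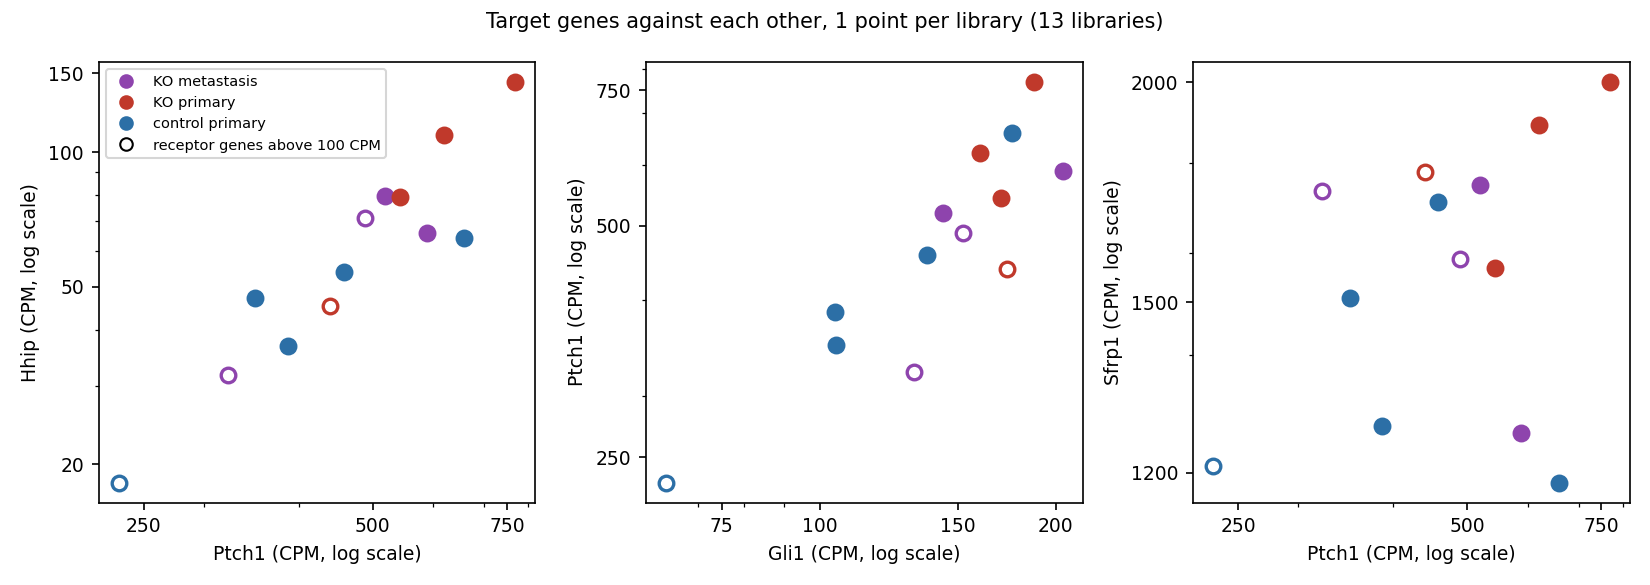
Levels of 2 genes against each other on log-scaled CPM axes, 1 point per library, coloured by group, with open points for the 4 libraries above 100 CPM of receptor genes. Hhip against Ptch1 (r = 0.933) and Ptch1 against Gli1 (r = 0.880) form bands that all 3 groups share, and Sfrp1 against Ptch1 (r = 0.325) scatters more widely.

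The genes most like each of the 4 were sought over the 13 libraries among 10385 other genes of at least 5 CPM, as a description. Hhip was 3rd of 10388 in likeness to Ptch1 and Gli1 was 14th, while Ptch1 was 5th in likeness to Hhip and 19th in likeness to Gli1. Without Ptch1 the ranks were lower, with Hhip 198th in likeness to Gli1 and Gli1 218th in likeness to Hhip. Pairs with Sfrp1 ranked from 2014th to 4417th. Fgfr1, a fibroblast growth factor receptor, was closest to Hhip at r = 0.970 and had r = 0.934 with Ptch1. Evc, whose product holds the SMO complex at the base of the cilium, was among the 4 closest to Hhip at r = 0.939, with Tle1 and Rad9a at 0.944 and 0.942. Ankrd13b led for Ptch1 at 0.941, followed after Fgfr1 by Ctdsp2 at 0.919 and Lama5 at 0.915. Gli1 was closest to the helicase gene Dhx9 at 0.957, with Ankrd13b at 0.929 and Ctdspl at 0.926 also among its 4 closest. Sfrp1 was closest to Nelfcd at 0.948, to the replication licensing genes Mcm5 at 0.924 and Mcm6 at 0.908, and to Cab39l at 0.918.

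Other genes reported as Hedgehog targets did not share 1 direction. Of 17 tested in KO primary against control primary, 2 were higher, none lower and 15 not called, with a median log2 fold change of -0.04. Over all genes, edgeR called 1.15% higher and 1.78% lower. Ccnd1, the D-type cyclin that links the pathway to the cell cycle, was at 593, 503, 608 and 470.5 CPM in KO primary, against 361, 318, 354, 359 and 299 CPM in control primary, with no overlap, as for 7.42% of all genes. Its log2 fold change was 0.69 (SE 0.12, edgeR adjusted p = 0.00783). Bcl2, an inhibitor of apoptosis, was at 29.5, 35.9, 41.1 and 42.8 CPM in KO primary, against 17.5, 17.3, 19.8, 25.8 and 23.8 CPM in control primary, again with no overlap (log2 fold change 0.84, SE 0.16, edgeR adjusted p = 0.00924). Both calls held when each of the 13 libraries was left out in turn, with adjusted p-values up to 0.0496 for Ccnd1 and 0.0470 for Bcl2. The genes of this list with the highest counts, Ccnd2, Insm1 and Mycn, had log2 fold changes of 0.11, -0.09 and -0.12 and were not called. DESeq2 also called Foxf2 and Spp1 lower, and voom called Igf2 higher and Foxf2 lower. Of all their genes DESeq2 called 10.2% and voom 14.7%.

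In KO metastasis against control primary edgeR called 2 of these 17 genes higher, again Ccnd1 and Bcl2, and 2 lower, with 13 not called. DESeq2 also called Ccnd2 and Igf2 higher, and voom called Igf2 higher and Foxa2 and Mycn lower. Over all genes, edgeR called 3.08%, DESeq2 9.59% and voom 17.2%. Ccnd1 averaged 535 ± 73.2 CPM in KO metastasis and 338 ± 28.0 CPM in control primary (log2 fold change 0.66, edgeR adjusted p = 0.00976), and the call was lost without KO metastasis 3 (0.0517). Bcl2 averaged 35.6 ± 1.46 CPM in KO metastasis and 20.8 ± 3.80 CPM in control primary (log2 fold change 0.77, edgeR adjusted p = 0.0150), a call lost without the 4 libraries above 100 CPM of receptor genes. Foxf2, a forkhead factor, fell to 18.9 ± 9.70 CPM in KO metastasis, against 110.0 ± 23.1 CPM in control primary (log2 fold change -2.54, edgeR adjusted p = 0.00100). Pdgfra, also a marker of oligodendrocyte precursors and fibroblasts, averaged 89.1 ± 31.4 CPM in KO metastasis and 239 ± 114 CPM in control primary (log2 fold change -1.42, edgeR adjusted p = 0.0308), and the call was lost in 9 of 13 fits that left out 1 library. The summed markers of oligodendrocyte precursors were at 638 to 757 CPM in KO metastasis and 1105 to 1536 CPM in control primary. That sum includes Pdgfra itself, so it is no separate reading of the Pdgfra change. Its largest part was C1ql1, with 347 to 463 CPM in KO metastasis and 641 to 1085 CPM in control primary. The part of oligodendrocyte precursors in the Pdgfra change was not tested. Fewer cells of a type and less RNA per cell cannot be told apart in such sorted bulk libraries. Between KO metastasis and KO primary edgeR called none of the 17, with 4 at an unadjusted p below 0.05, beside 3.23% of all genes. There DESeq2 called Spp1 higher and Foxf2 lower, beside 0.149% of its genes, and voom called Foxf2 lower, beside 0.00898%.

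Upstream of the targets, ligand genes were barely detected. Ihh averaged 1.01 CPM in KO metastasis, 0.995 CPM in KO primary and 0.920 CPM in control primary, and Shh and Dhh did not pass the filter on low counts. Of 13 receptor and co-receptor genes, which include Ptch1 and Hhip, edgeR called Gas1 alone in KO primary against control primary. DESeq2 and voom each called Boc, Gas1 and Hhip. Over all genes of that comparison, edgeR called 2.93%, DESeq2 10.2% and voom 14.7%. Gas1, which encodes a co-receptor that helps ligand binding, was at 300.2, 272, 176 and 136 CPM in KO primary, against 82.1, 85.6, 98.2, 96.3 and 85.3 CPM in control primary, with no overlap, as for 7.42% of all genes. Its log2 fold change was 1.30 (SE 0.25, edgeR adjusted p = 0.0122), and the call was lost without KO primary 3 or KO primary 4, where the adjusted p reached 0.0631. In KO metastasis Gas1 averaged 162 ± 65.2 CPM, and its difference from control primary was not called (log2 fold change 0.86, edgeR adjusted p = 0.0933), nor was that of any other gene of the list. DESeq2 and voom both called Gas1 there, beside 9.59% and 17.2% of their genes. Boc, a co-receptor of the same step, averaged 359 ± 115 CPM in KO primary and 211 ± 58.9 CPM in control primary (log2 fold change 0.77, edgeR adjusted p = 0.165). Smo averaged 347 ± 69.1 CPM in KO primary and 272 ± 54.5 CPM in control primary (log2 fold change 0.35, edgeR adjusted p = 0.583). Counts do not separate reads of SmoM2 from those of the endogenous gene. The median log2 fold change of the 13 genes in KO primary against control primary was 0.32.

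None of 18 Gli factors and regulators, with Gli1 among them, was called by edgeR in KO primary against control primary. At an unadjusted p below 0.05 there were 4 higher, Gli1, Gpr161, Kif7 and Spop, and DESeq2 called the last 3 of these. Limma voom called 4 of them higher and Stk36 lower. Over all genes of that comparison, 6.69% were higher at an unadjusted p below 0.05, and DESeq2 called 10.2% and voom 14.7%. Gli2 had a log2 fold change of 0.53 (95% interval -0.04 to 1.09), Gli3 of 0.36 (-0.16 to 0.89) and Sufu, the cytoplasmic inhibitor of GLI proteins, of 0.03 (-0.58 to 0.65). Csnk1a1, Gsk3b and Prkaca, kinase genes of the GLI processing step and the most abundant of the list, had 0.24, 0.07 and 0.03. The median of the list was 0.23 there, and 0.06 in KO metastasis against control primary, where edgeR also called none of 18, with 2 at an unadjusted p below 0.05, DESeq2 called none and voom 4 lower. Over all genes of this second comparison, 14.2% passed an unadjusted p of 0.05, and DESeq2 called 9.59% and voom 17.2%. In edgeR 2.93% of all genes were called in KO primary and 3.08% in KO metastasis against control primary. The same shares of all genes stand beside the lists that follow.

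Of 22 primary cilium genes edgeR called none in either comparison with control primary. In KO primary against control primary none passed an unadjusted p of 0.05 or was called by DESeq2, voom called 2 lower, and the median log2 fold change was 0.06. Kif3a, Dync2h1 and Arl3, motor and transport genes of the cilium and the most abundant of the list, had 0.10, 0.07 and 0.16. In KO metastasis against control primary the median was 0.02, with 2 genes lower at an unadjusted p below 0.05, none called by DESeq2 and 1 lower by voom.

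Among 7 tested secreted Wnt antagonists, the family of Sfrp1, edgeR called none in KO primary against control primary, while 3 were higher and 1 lower at an unadjusted p below 0.05. DESeq2 called Sfrp2 there, and voom Sfrp2 and Sfrp4. Sfrp2 was called in KO metastasis, where it held 189.7, 473, 226 and 212 CPM, against 129, 91.5, 108, 120 and 46.9 CPM in control primary (log2 fold change 1.48, edgeR adjusted p = 0.0287). That call was lost without KO metastasis 4, control primary 4 or control primary 7. DESeq2 and voom also called Frzb lower there. In KO primary Sfrp2 was at 316, 299.8, 177 and 155 CPM, above all controls, with a log2 fold change of 1.26 (edgeR adjusted p = 0.0633). Over all genes of that comparison, 7.42% had no overlap. Between KO metastasis and KO primary, edgeR, DESeq2 and voom called no gene of the receptor, Gli regulator, cilium, Wnt antagonist and cell cycle lists, and Spop, a degradation adaptor for GLI proteins, was the only one at an unadjusted edgeR p below 0.05.

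**Figure D4:**
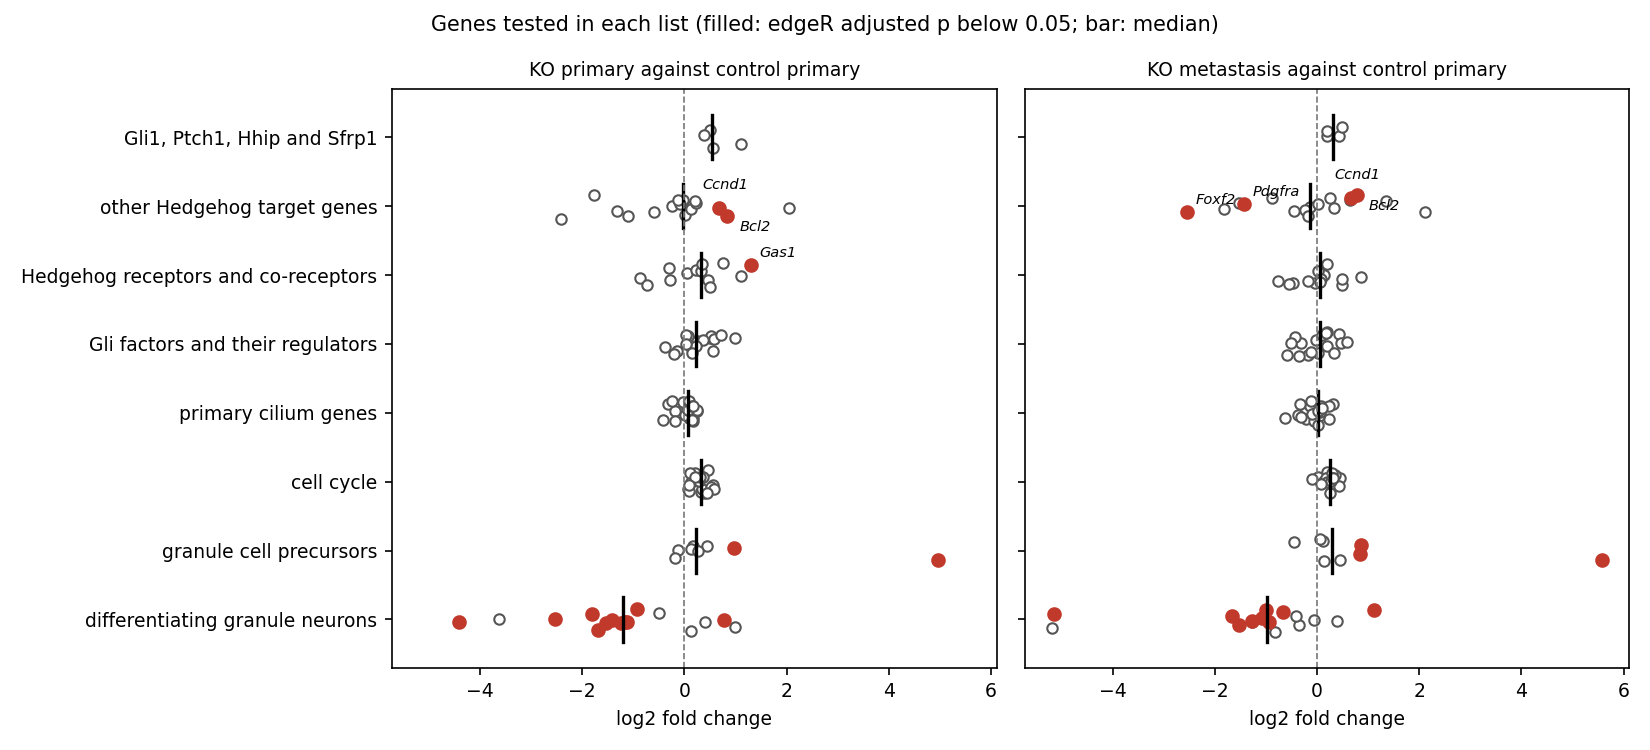
Log2 fold change (horizontal axis) of every tested gene of 8 lists in KO primary and KO metastasis against control primary, with filled points for an edgeR adjusted p below 0.05 and bars at each list's median. Gli1, Ptch1, Hhip and Sfrp1 all lie to the right of 0 and are all unfilled, and the filled points are mostly genes of differentiating granule neurons, to the left.

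Genes of granule cell differentiation were called in the same comparison. For the 16 genes that mark differentiating granule neurons, KO primary against control primary gave 10 lower, 1 higher, Cbln1, and 5 not called in edgeR, with a median log2 fold change of -1.21. The call of Cbln1 was lost in 5 of 13 fits without 1 library and that of Nhlh1 in 2. They summed to 1391 to 1595 CPM in KO primary and 2585 to 4271 CPM in control primary, and none was at 0 in either group. Neurod1, a factor of granule neuron differentiation, fell to 162 ± 41.2 CPM in KO primary, against 567 ± 186 CPM in control primary (log2 fold change -1.81, edgeR adjusted p = 0.00286). Of 8 granule cell precursor genes 2 were higher. Atoh1, which keeps precursors dividing and was among them, averaged 684 ± 83.3 CPM in KO primary and 350.4 ± 49.9 CPM in control primary (log2 fold change 0.97, edgeR adjusted p = 0.0199), a call lost in 4 of 13 fits without 1 library.

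In KO metastasis 8 of the neuronal genes were lower and 1 was higher in edgeR against control primary, with a sum of 1471 to 2335 CPM in KO metastasis. Of the 8, Nhlh2 was lost in 12 of 13 fits without 1 library, Tubb3 in 9 and Stmn2 in 5, and without the 4 libraries above 100 CPM of receptor genes 6 were lower. Atoh1 and Barhl1 were among the precursor genes called higher, Barhl1 with 1302 ± 260 CPM in KO metastasis and 714 ± 143 CPM in control primary (log2 fold change 0.87, edgeR adjusted p = 0.0106). The call of Atoh1 in KO metastasis was lost in 9 of 13 fits without 1 library, with an edgeR adjusted p up to 0.130, and without the 4 libraries above 100 CPM of receptor genes. All 18 cell cycle genes tested had a positive log2 fold change in KO primary against control primary, beside 45.6% of all genes. Their median was 0.32, but edgeR called none. There 7 passed an unadjusted p of 0.05, all higher, beside 6.69% of all genes higher. DESeq2 called 2 and voom 4, beside 10.2% and 14.7% of their genes. Aurkb and the licensing factor gene Cdt1 were called by both tools. In KO metastasis against control primary 17 of the 18 were positive, beside 46.6% of all genes, with a median of 0.26. There edgeR called none, DESeq2 2 and voom 3, with 3 at an unadjusted p below 0.05. The shares of all genes were 9.59% with DESeq2, 17.2% with voom and 14.2% at an unadjusted p below 0.05. The most abundant of the 18, Mcm6, Top2a and Mki67, had log2 fold changes of 0.58, 0.22 and 0.28 in KO primary against control primary. The part of the precursor, neuron and cell cycle genes in the levels of Gli1, Ptch1, Hhip and Sfrp1 was not tested.

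Markers of cells that the sort could also hold were summed in each library. Oligodendrocyte markers summed to 182 to 1983 CPM in KO metastasis, 76.1 to 110.0 CPM in KO primary and 151 to 425 CPM in control primary. Microglia and macrophage markers summed to 17.3 to 252 CPM in KO metastasis, to 5.73 to 27.5 CPM in KO primary and 11.8 to 119 CPM in control primary. Endothelial markers summed to 28.9 CPM at most in any library and pericyte markers to 35.6 CPM. Fibroblast and meningeal markers, which include Pdgfra and Igf2, summed to 115 to 198 CPM in KO metastasis, 201 to 326 CPM in KO primary and 185 to 438 CPM in control primary. Mbp, a myelin gene, was the gene called between KO metastasis and KO primary in edgeR, and DESeq2 and voom called it too. The edgeR call of Mbp was lost in 10 of 13 fits without 1 library, with an edgeR adjusted p up to 0.480. It was also lost without the 4 libraries above 100 CPM of receptor genes. Astrocyte and Bergmann glia markers, some of which granule cell precursors also express, summed to 787 to 1456 CPM in KO metastasis, 788 to 1315 CPM in KO primary and 709 to 931 CPM in control primary. Sox9 alone held 395 to 690 CPM in KO metastasis, 440 to 727 CPM in KO primary and 230 to 336 CPM in control primary. Against control primary, 3 of the 11 genes had a positive log2 fold change in KO primary and 5 in KO metastasis. The medians were -0.42 and -0.10. In edgeR Sox9 was called higher in both comparisons and Aqp4 lower in KO primary. The Aqp4 call was lost in 7 of 13 fits without 1 library, with an edgeR adjusted p up to 0.144. That of Sox9 was lost in 5 of 13 in KO metastasis and 0 of 13 in KO primary. The part of such cells in the Hedgehog target levels was not tested.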

How the data were processed

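Gene counts of 13 RNA-seq libraries of sorted tumour cells were compared. The counts were deposited by the authors, whose processing notes name mm10 as the build and STAR 2.4, HTSeq 0.6.1 and DESeq2 as tools, without roles. The sources used here name no annotation, strand setting or trimming. Cells were freed with papain, sorted for GFP and prepared with a TruSeq RNA kit, per the labels' protocols. No molecular identifiers are stated, so counting intervals cover counting error only.

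From the deposited counts, 22265 of 53653 genes passed filterByExpr with a minimum count of 10 and a minimum total of 15, and were TMM-scaled and fitted in edgeR 4.0.16 (R 4.3.3) as 3 groups of all libraries, with quasi-likelihood F tests and Benjamini-Hochberg adjustment over all genes tested (threshold 0.05). The standard error is the log2 fold change over the root of F, and 95% intervals use the t distribution on the total degrees of freedom. CPM are TMM-scaled, except receptor and Xist levels, which use library totals. RPKM divides by exon length from GENCODE M21, which also gave the 1-based GRCm38 coordinates. Of all symbols, 28447 matched that annotation. Correlations use log2 CPM with a prior count of 2, TMM-scaled or, as an alternative, on library totals, and 100000 permutations, within groups where group means were removed. The fitting was tested on simulated counts. All columns had a sample, and no pair of libraries of the same group agreed within sampling noise (chi-square per degree of freedom of at least 30.9). Pairs across groups were not checked in this way.

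The 4 genes, the gene lists and the tests were chosen with earlier results of these data known. Named were the 4 genes, Kmt2d and Smo, called genes of each list and its 3 genes of highest mean CPM, and for each of the 4 the 4 genes of highest correlation. Some genes that this rule names are not reported here. Gli2, Gli3, Sufu and the genes given at an unadjusted p or by another tool were named after their values were seen. The labels do not say whether equal replicate numbers share a mouse, so the numbers were not taken to pair the samples. Same-numbered libraries of KO metastasis and KO primary deviated from their group means with correlations of 0.356, 0.488, -0.005 and 0.675. These values do not settle the pairing, and the groups were compared as unpaired in the main fit. Alternatives were other scalings, no filter, DESeq2 1.42.0, limma 3.58.1 voom with quality weights, only the groups compared, a replicate block, the hemisphere as a covariate, each library left out, and leaving out the 4 libraries above 100 CPM of receptor genes or the controls with Xist above 10 CPM. TMM with whole library totals and correlations in 9 libraries were added after seeing the data.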

Additional observations from a re-analysis of the deposited data

How the results depend on the processing

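Of 292 values of Gli1, Ptch1, Hhip and Sfrp1 under an alternative in the comparisons of 2 groups, 286 kept the direction and the side of the threshold. Over all alternatives the log2 fold change in KO primary against control primary stayed between 0.41 and 1.06 for Gli1, 0.35 and 0.97 for Ptch1, 0.82 and 1.81 for Hhip and 0.30 and 0.59 for Sfrp1. Hhip passed the threshold with DESeq2 (1.09), with limma voom (1.01) and without the 4 libraries above 100 CPM of receptor genes (1.15), and Gli1 with voom (0.47). In the test of all 3 groups the adjusted p of Hhip was 0.0402 with limma voom and 0.0248 without those 4 libraries in edgeR. The share of all genes called was not counted for these 3-group tests. In KO primary against control primary voom called 14.7% of genes, and edgeR without those 4 libraries 7.06%. The sign turned for Ptch1 in KO metastasis against control primary with voom (-0.082) and for Gli1 in KO metastasis against KO primary without the 4 libraries (0.0079), and the cause was not tested. In KO metastasis against KO primary the log2 fold change ranged from -0.98 to -0.31 for Hhip and from -0.56 to -0.13 for Ptch1. Of 24 alternatives there, 3 gave Hhip and 1 gave Ptch1 an unadjusted p below 0.05, with 0 for Gli1 and Sfrp1. In KO metastasis against control primary these were 4 for Gli1, 1 each for Hhip and Sfrp1 and 0 for Ptch1.

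Counts of genes called moved more. KO primary against control primary had 653 genes, 1648 with DESeq2, 3267 with voom, 1427 without the 4 libraries and 138 without the controls with Xist, where fewer samples were fitted. Leaving out 1 library gave 277 to 1032, with fewest without KO primary 4 and most without control primary 3. KO metastasis against control primary had 685 genes, 1671 with DESeq2, 3822 with voom, 1274 without the 4 libraries and 100 without the controls with Xist, and 369 to 1199 without 1 library. KO metastasis against KO primary had 1 gene, 0 with library totals, 2 without the filter, 33 with DESeq2, 2 with voom, 0 with only the groups compared, 5 without the 4 libraries, 0 without the controls with Xist and 0 to 2 without 1 library.

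With a replicate block, none of the 4 genes was called. The block over 13 libraries gave log2 fold changes in KO primary against control primary of 0.76 for Gli1, 0.71 for Ptch1, 1.18 for Hhip and 0.35 for Sfrp1, and 672, 639 and 0 genes called in KO primary against control primary, KO metastasis against control primary and KO metastasis against KO primary. Within the groups compared, the replicate block called 480, 411 and 10. Same-numbered libraries of KO metastasis and KO primary correlated between -0.005 and 0.675 in their deviations and different numbers between -0.671 and 0.686. The value of 0.686 joined KO metastasis 6 and KO primary 7, both above 100 CPM of receptor genes. These ranges cannot decide whether the numbers pair the samples, and the block result is a description of shared numbers. Counting error was at most 9.07% of a value of the 4 genes, reads without molecular identifiers being taken as independent, and the effect of depth on the calls was not tested.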
